A study of Mus musculus with 46 samples.

Results

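Gene expression was compared between Ctrl mice killed 72 h after their last session in an inhalation chamber that delivered only air and Ctrl mice killed at the end of that session (0 h). The tissue dissected, from the extended amygdala of the forebrain, was the bed nucleus of the stria terminalis, or BNST. Members were chosen by treatment and time alone, as given in the label of each array, which gave 6 mice at 72 h and 6 at 0 h of 46 in the series, and all 45037 probesets were used. All were adult male C57BL/6J mice, a standard inbred strain, with 1 mouse per array and no transgene. Each Ctrl mouse spent 16 hours of each day in the chamber for 4 days, repeated in 4 cycles separated by 7 days, and was injected with saline and pyrazole (1 mmol/kg), an inhibitor of alcohol dehydrogenase, before it entered. No Ctrl mouse received ethanol, but all received pyrazole, so neither group was untreated. Ctrl groups at 8 h and 7 d (6 mice each) and groups that received ethanol vapor with injections of ethanol and pyrazole (CIE; 6 mice at 0 h and 6 at 72 h) served as reference. Time since the last session, since the last pyrazole injection and since the last handling run together in this design and cannot be told apart.

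The BNST is made up mostly of GABA neurons, many of which also make neuropeptides such as enkephalin (Penk), dynorphin (Pdyn) and corticotropin-releasing hormone (Crh), and it takes part in responses to stress and in anxiety. Like every cell that exports protein, its neurons and glia fold new proteins in the endoplasmic reticulum (ER) with chaperones and disulfide isomerases whose genes are induced together when unfolded protein builds up. Foreign compounds are handled by oxidases, hydrolases, sulfotransferases and glutathione transferases, a large part of which sit in astrocytes and in the vessel wall.

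Transcripts of BNST neurons were measured in both groups. In Ctrl mice at 0 h and 72 h the mean log2 intensity was 13.04 and 12.97 for Gad1, 11.66 and 11.68 for Slc32a1, 12.26 and 12.46 for Penk and 9.71 and 9.82 for Crh. Marker lists of neighbouring regions were measured as well, with means of 8.01 and 8.02 for cortical and hippocampal pyramidal neurons, 9.71 and 10.02 for the striatum and 8.86 and 8.56 for the thalamus. Levels of different probesets cannot be compared with one another, so these values do not tell how much of the tissue came from the BNST. The 12 arrays correlated with one another at 0.985 to 0.998 and had medians of 6.78 to 6.83. The Ctrl 0 h mice were more dispersed than the Ctrl 72 h mice. Their mean correlation with the rest of their group was 0.989 to 0.994, against 0.995 to 0.997 at 72 h, and mice 48 and 56 of Ctrl 0 h lay farthest from the others on the second principal component, at opposite ends.

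A total of 78 of 45037 probesets (0.173%) differed between Ctrl 72 h and Ctrl 0 h (limma, adjusted p of 0.01 or less, two-sided), of which 35 (0.0777% of all probesets) were higher and 43 (0.0955%) lower at 72 h. Changes were small. The median size among the 78 was 0.44 on the log2 scale, and 5 of them exceeded 2-fold. With 1 representative probeset per gene, 46 of 18193 genes (0.253%) were called, 25 higher (0.137%) and 21 lower (0.115%). Of the 78 probesets, 65 had 1 gene symbol, and the other 13 were counted but not named. At an adjusted p of 0.05 or less, 178 probesets (0.395%) passed. For 67 of the 78 probesets the values of the 6 mice at 72 h did not overlap those of the 6 mice at 0 h, against 0.877% of all probesets. The 78 were chosen by the difference between these same mice, so the count adds no support to the calls.

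The falls and the rises rested on the 12 mice to different degrees. When mice 48 and 56 of Ctrl 0 h were both left out, an alternative added after the data were seen, 32 probesets were lower and 6 higher, and 16 of the 21 falling genes and 6 of the 25 rising genes were still called. Leaving out 1 mouse at a time kept 15 of the 21 falling genes and 11 of the 25 rising genes called in all 12 fits. Fitted to the 12 arrays alone, with the spread of the other groups left out, limma called 12 probesets, 9 lower and 3 higher, among them Aox1, 9630013A20Rik, Sdf2l1 and Manf (lower) and Gpr17, Gm11627 and Gkn3 (higher).

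Enzymes that process foreign compounds and aldehydes were among the largest falls. Of 23 measured ethanol and xenobiotic enzymes, 4 fell, 0 rose and 19 were not called, against 0.115% of all genes lower, and the median change of the list was -0.03, against 0.03 over all genes. Aox1, an aldehyde oxidase of the cytosol, had the largest fall of the called genes. Its log2 intensity ranged from 9.24 to 9.67 (median 9.34) at 0 h and from 7.93 to 8.41 (median 8.13) at 72 h. The groups did not overlap, the mean was 9.38 ± 0.15 (SD, n = 6) at 0 h and 8.13 ± 0.18 (n = 6) at 72 h, and the change was -1.25 ± 0.09 (SE), a 2.38-fold fall (limma, adjusted p = 3.8e-13).

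Gstm1, a glutathione transferase of the mu class that is abundant in astrocytes, ranged from 12.59 to 12.97 (median 12.71) at 0 h and from 11.91 to 12.32 (median 12.17) at 72 h. It fell by 0.58 ± 0.06 (SE) without overlap (limma, adjusted p = 4.2e-09). Its representative probeset can also bind transcripts of related transferases, and a more specific Gstm1 probeset fell by 0.64 (limma, adjusted p = 3.7e-09), while 2 further Gstm1 probesets had changes of -0.15 and -0.40 that were not called (adjusted p = 0.60 and 0.029). Ephx1, the microsomal epoxide hydrolase, ranged from 9.60 to 9.83 (median 9.71) at 0 h and from 9.12 to 9.40 (median 9.28) at 72 h, a fall of 0.45 ± 0.06 (SE; limma, adjusted p = 1.1e-05). Sult1a1, a phenol sulfotransferase, ranged from 8.90 to 9.57 (median 8.97) at 0 h and from 8.20 to 8.99 (median 8.54) at 72 h. Its groups overlapped, its change was -0.53 ± 0.11 (SE; limma, adjusted p = 0.0090), and the call held in 3 of the 12 fits that left out 1 mouse.

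Other enzymes of detoxification and small-molecule turnover were lower too. Mgst1, a glutathione transferase of membranes, fell by 0.34 (limma, adjusted p = 1.4e-04), Rida, which clears reactive imines, by 0.37 (adjusted p = 0.0022), and Etnppl, an astrocyte enzyme that breaks down phosphoethanolamine, by 0.58 (adjusted p = 4.4e-05). Aass, the first enzyme of lysine breakdown, fell by 0.33 and Sat1, which acetylates polyamines, by 0.26 (adjusted p = 0.0065 and 0.0063), calls that held in 5 and 4 of the 12 fits that left out 1 mouse. Of 15 measured NRF2 and antioxidant genes, Gstm1 fell and 0 rose, against 0.115% of all genes lower. Of the 15 genes 13 had a negative value, as had 6436 of all 18193 genes, and the median was -0.10 (-0.19 without mouse 48 of Ctrl 0 h), against 0.03 over all genes. Slc7a11, the cystine transporter, had a change of -0.54 that did not reach the threshold (limma, adjusted p = 0.013). Srxn1, which repairs oxidised peroxiredoxins, had 1 probeset that fell by 0.41 (adjusted p = 0.0050), while its representative probeset had a change of -0.20 (adjusted p = 0.086).

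**Figure D1:**
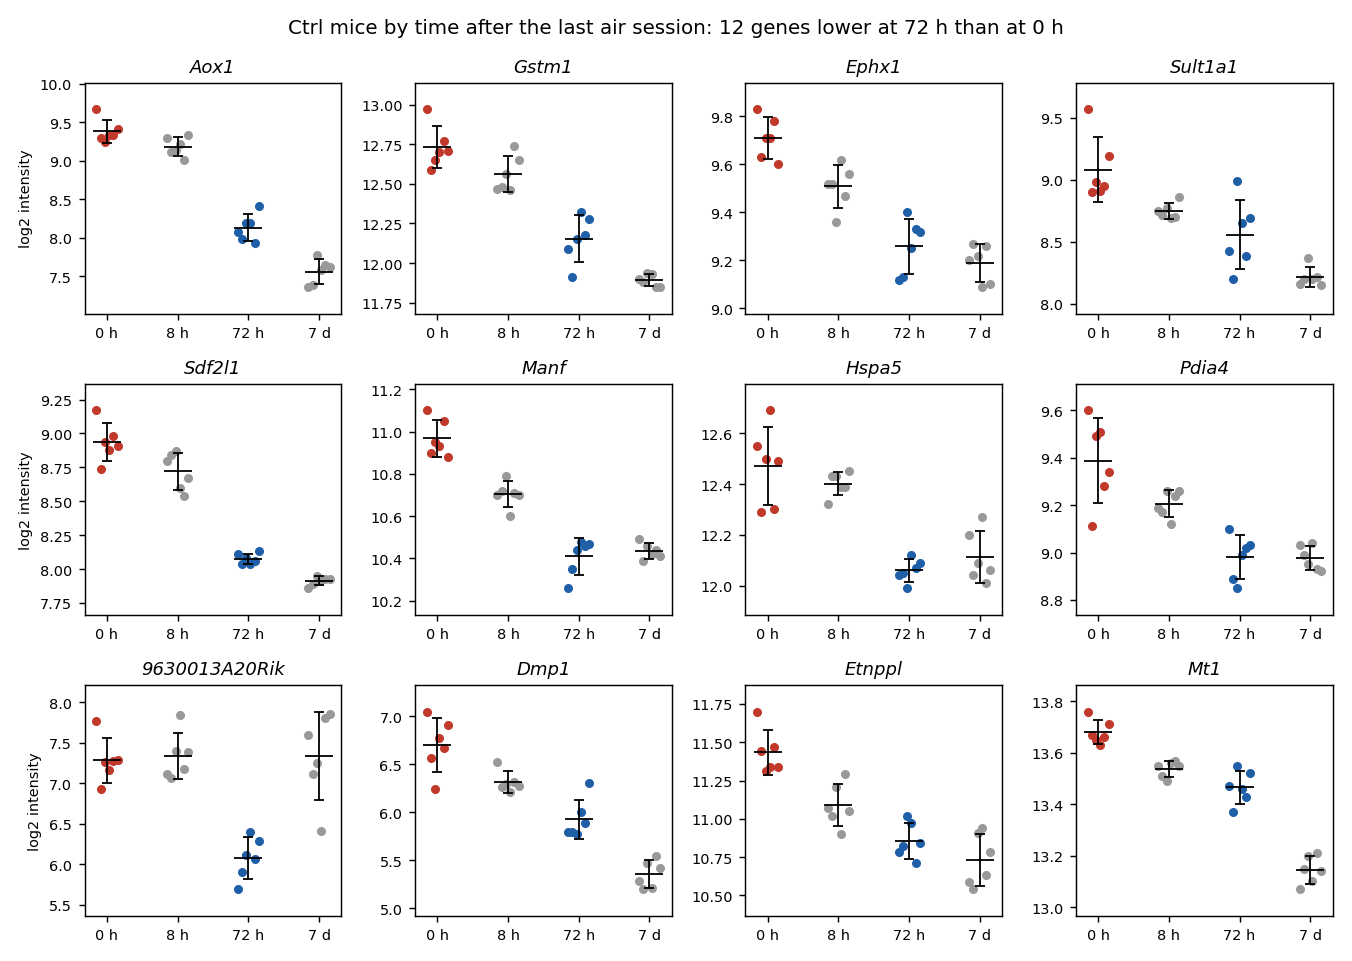
Log2 intensity of 12 genes that fell, in the 24 Ctrl mice by time after the last air session. Points are single mice (0 h red, 72 h blue, 8 h and 7 d grey), and black bars show the mean and SD of 6 mice; Aox1 went from a mean of 9.38 at 0 h to 8.13 at 72 h and 7.56 at 7 d, while 9630013A20Rik was low at 72 h and back at 7.34 at 7 d.

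Genes for protein folding in the ER held the most called members of any list. Of 23 measured ER stress genes, 6 fell, 0 rose and 17 were not called, against 0.115% of all genes lower, and the median change was -0.12, against 0.03 over all genes. The mean of the 23 genes in a mouse ranged from 10.23 to 10.35 at 0 h and from 10.08 to 10.12 at 72 h, without overlap. This was not particular to the list. The mean of the NRF2 and antioxidant genes ranged from 10.14 to 10.28 at 0 h and from 10.00 to 10.09 at 72 h. That of the neurotrophin and axon growth genes, of which 0 were called, ranged from 9.41 to 9.46 and from 9.47 to 9.55. Of the 6 fallen genes, 3 carry the ER stress response element (ERSE) in their promoter, and these promoters are shown because the same element recurs in them. They are RefSeq sequences of build GRCm38.p6, from 250 bases before to 50 after the start of the gene, written 5′ to 3′ on the strand of the gene. Capitals mark the match to the ERSE, which is CCAAT, any 9 bases and CCACG, and lies on the opposite strand in Calr.
Hspa5, chr2:34771840-34772139, plus strand: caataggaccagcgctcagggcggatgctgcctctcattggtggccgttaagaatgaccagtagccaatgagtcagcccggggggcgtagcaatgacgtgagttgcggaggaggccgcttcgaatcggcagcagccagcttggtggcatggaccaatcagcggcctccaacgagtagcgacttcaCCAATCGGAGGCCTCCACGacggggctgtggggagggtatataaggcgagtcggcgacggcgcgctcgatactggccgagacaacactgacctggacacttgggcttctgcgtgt
Pdia6, chr12:17266339-17266638, plus strand: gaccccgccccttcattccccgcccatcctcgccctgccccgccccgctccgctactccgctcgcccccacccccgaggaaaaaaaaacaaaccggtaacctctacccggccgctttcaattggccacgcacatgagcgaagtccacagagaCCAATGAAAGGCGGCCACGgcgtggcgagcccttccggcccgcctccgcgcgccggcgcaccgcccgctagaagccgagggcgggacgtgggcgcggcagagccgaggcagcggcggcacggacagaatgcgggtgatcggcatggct
Calr, chr8:84846882-84847181, minus strand: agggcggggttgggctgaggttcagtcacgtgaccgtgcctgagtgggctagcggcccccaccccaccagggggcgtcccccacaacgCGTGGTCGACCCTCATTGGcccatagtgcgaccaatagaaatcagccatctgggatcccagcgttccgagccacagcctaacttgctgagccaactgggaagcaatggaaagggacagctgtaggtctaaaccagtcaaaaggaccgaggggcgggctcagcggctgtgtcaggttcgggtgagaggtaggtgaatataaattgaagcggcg

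The element was searched on both strands and was found in 39 of 32851 promoters (0.119%). Within the list it was found in 3 of 5 fallen genes that had a promoter entry and in 4 of 16 genes that were not called and had one. Counted from the start of the gene, the match began at position -65 in Hspa5, -98 in Pdia6 and -162 in Calr. A match describes the letters and does not show that a factor was bound.

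Sdf2l1, a partner of the ER chaperones, had the largest fall of the list. It ranged from 8.74 to 9.17 (median 8.93) at 0 h and from 8.04 to 8.13 (median 8.07) at 72 h, a change of -0.86 ± 0.08 (SE), 1.81-fold (limma, adjusted p = 4.4e-10). Manf, a secreted neurotrophic protein held in the ER, ranged from 10.88 to 11.10 (median 10.94) at 0 h and from 10.26 to 10.48 (median 10.45) at 72 h and fell by 0.56 ± 0.05 (adjusted p = 2.8e-10). In neither gene did the 6 mice at 72 h reach the lowest mouse at 0 h.

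Hspa5, the main Hsp70 chaperone of the ER (BiP), whose promoter is shown above, ranged from 12.29 to 12.69 (median 12.49) at 0 h and from 11.99 to 12.12 (median 12.06) at 72 h, a fall of 0.41 ± 0.06 (SE; limma, adjusted p = 2.1e-05). Of the other 2 Hspa5 probesets, 1 fell by 0.45 (adjusted p = 9.9e-05) and 1 was at 0.20 (adjusted p = 0.38). The disulfide isomerases Pdia4 and Pdia6 fell by 0.41 ± 0.06 and 0.38 ± 0.05, and calreticulin (Calr), a calcium-binding chaperone of glycoproteins, by 0.34 ± 0.04 (adjusted p = 2.4e-04, 8.6e-06 and 1.5e-07). Pdia3 was just outside the threshold at -0.52 (adjusted p = 0.0103). Dnajc3 had 1 probeset that fell by 0.43 (adjusted p = 3.7e-04), while its representative probeset had a change of -0.12 (adjusted p = 0.31). The list's transcription factor Atf4 had a change of 0.01 and its target Chac1, a glutathione-degrading enzyme, of 0.15 (adjusted p = 0.96 and 0.41).

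Several falls lay outside these groups. The long non-coding RNA 9630013A20Rik, known in the mouse from newly formed oligodendrocytes, ranged from 6.93 to 7.77 (median 7.27) at 0 h and from 5.69 to 6.40 (median 6.08) at 72 h. Its change was -1.21 ± 0.19 (SE; limma, adjusted p = 1.6e-04), and its other 2 probesets fell by 1.17 and 0.69. Its mean at 7 d was 7.34, against 7.28 at 0 h and 6.07 at 72 h. Dmp1, a matrix phosphoprotein best known from bone and dentin, ranged from 6.24 to 7.05 (median 6.73) at 0 h and from 5.78 to 6.31 (median 5.85) at 72 h, with overlap, and fell by 0.77 ± 0.11 (adjusted p = 2.6e-05). Cxcl5, a chemokine for neutrophils, fell by 0.63 from a mean of only 4.20, near the low end of the array values (adjusted p = 0.0017). Fam107a, an astrocyte gene that binds actin, fell by 0.24 and the metallothionein Mt1 by 0.21 (adjusted p = 8.2e-04 and 0.0015), and neither overlapped between groups. Cdk2ap2, an inhibitor of a cell cycle kinase, fell by 0.36 (adjusted p = 0.0030), while its other probeset had a change of -0.01 (adjusted p = 0.98).

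**Figure D2:**
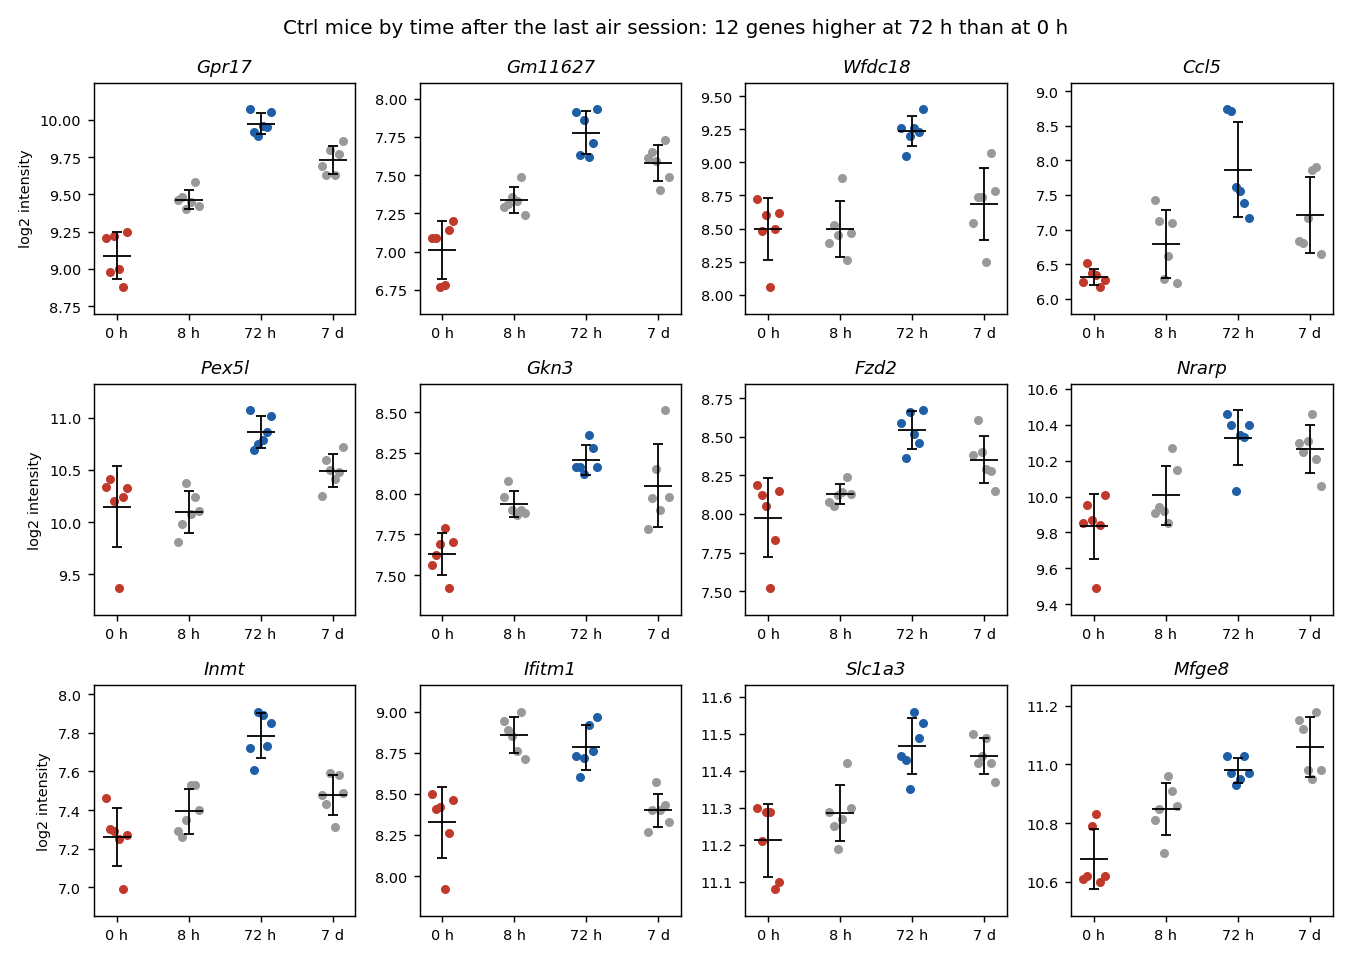
Log2 intensity of 12 genes that rose, in the 24 Ctrl mice by time after the last air session. Points are single mice (0 h red, 72 h blue, 8 h and 7 d grey), and black bars show the mean and SD of 6 mice; Gpr17 went from a mean of 9.09 at 0 h to 9.97 at 72 h, and 1 mouse at 0 h was far below the rest for Pex5l (9.37) and Nrarp (9.49).

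The rises were led in significance by Gpr17, a receptor that marks oligodendrocyte precursors committed to differentiation. It ranged from 8.88 to 9.25 (median 9.11) at 0 h and from 9.89 to 10.07 (median 9.96) at 72 h, and rose by 0.88 ± 0.08 (SE), 1.85-fold (limma, adjusted p = 9.7e-10). No mouse at 72 h came near the range at 0 h. Of 14 measured precursor markers it was the only one called. Positive values were found for 9 of the 14 and negative values for 5, and 11757 of all 18193 genes were positive. The median of the list was 0.11, against 0.03 over all genes. The RNA 9630013A20Rik, described above from newly formed oligodendrocytes, went the other way (-1.21). Pllp, a proteolipid of myelin, rose by 0.40 (adjusted p = 0.0065, in 4 of 12 fits that left out 1 mouse), and Mag, a myelin glycoprotein, had a change of 0.34 (adjusted p = 0.055). Of 18 oligodendrocyte and myelin markers on the list, 0 were called.

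The next rises were those of an astrocyte marker and of signalling genes. Slc1a3, the glutamate transporter GLAST, ranged from 11.08 to 11.30 (median 11.25) at 0 h and from 11.35 to 11.56 (median 11.47) at 72 h and rose by 0.26 ± 0.04 (SE; limma, adjusted p = 6.8e-04). Of the 5 further Slc1a3 probesets 2 had negative values. No other gene of the 19 astrocyte markers was called. Of the 19 markers 12 were positive and 7 negative, and 11757 of all 18193 genes were positive. The median of the list was 0.03, against 0.03 over all genes. Gstm1, Etnppl and Fam107a, named above with astrocytes, were among the falls. Mfge8, a bridging protein in phagocytosis, rose by 0.30 (adjusted p = 0.0010) without overlap. Of 26 Notch and Wnt pathway genes, 2 rose and 0 fell, against 0.137% of all genes higher, with a median of 0.09, against 0.03 over all genes. Fzd2, a Wnt receptor, ranged from 7.52 to 8.19 (median 8.09) at 0 h and from 8.36 to 8.67 (median 8.56) at 72 h, a rise of 0.56 ± 0.09 (adjusted p = 5.2e-04). Nrarp, a target and inhibitor of Notch signalling, rose by 0.49 ± 0.08 (adjusted p = 7.8e-04). Further probesets of Fzd2 (0.28 and 0.25) and Nrarp (0.21) were not called (limma, adjusted p = 0.13, 0.29 and 0.48). Both calls held in the 12 fits that left out 1 mouse, but not without mice 48 and 56 of Ctrl 0 h together. Hes5, another Notch target, had a change of 0.43 (adjusted p = 0.069).

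Genes of vessel and immune cells were among the rises, but no list of such genes held a called member. Ccl5, a chemokine of T cells and other leukocytes, had the largest change. It ranged from 6.17 to 6.51 (median 6.31) at 0 h and from 7.17 to 8.74 (median 7.59) at 72 h, so that every mouse at 72 h was above every mouse at 0 h, but the SD was 0.68 at 72 h against 0.12 at 0 h. The change was 1.55 ± 0.31 (SE), 2.92-fold (limma, adjusted p = 0.0072), and was called in 2 of the 12 fits that left out 1 mouse. Ifitm1, an interferon-inducible membrane protein, rose by 0.46 (adjusted p = 0.0013), while 0 of 28 interferon-stimulated genes were called and their median was -0.04. The MHC class I gene H2-K1 had a change of 0.29 (adjusted p = 0.53).

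Gkn3, a gastrokine known in the mouse brain from arterial endothelium, rose by 0.58 ± 0.10 (SE; limma, adjusted p = 0.0011), from a range of 7.42 to 7.79 to one of 8.12 to 8.36. Cav1, the coat protein of caveolae, rose by 0.40 and Adgrl4, an adhesion receptor of endothelium, by 0.35 (adjusted p = 0.0055 and 0.0058, called in 3 and 4 of the 12 fits without 1 mouse). Of 17 endothelial markers 0 were called. Positive values were found for 15 of 17, as for 11757 of all 18193 genes. The median of the list was 0.13, against 0.03 over all genes. Lum, a proteoglycan of meningeal fibroblasts, had a change of 0.47 (adjusted p = 0.021), and 0 of 18 fibroblast and meningeal markers were called.

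The largest of the other rises were those of Gm11627, Wfdc18 and Pex5l. Pex5l, a partner of HCN channels, rose by 0.71 (limma, adjusted p = 0.0036). Its lowest mouse at 0 h was at 9.37 and the other 5 at 10.20 to 10.41, against 10.69 to 11.07 at 72 h. Further Pex5l probesets had changes of 0.54, 0.22 and 0.08 that were not called (adjusted p = 0.066, 0.60 and 0.73). Wfdc18 rose by 0.73 ± 0.10 (SE; adjusted p = 2.8e-05), from 8.06 to 8.72 at 0 h to 9.05 to 9.40 at 72 h, and the unannotated transcripts Gm11627 and 4930506C21Rik by 0.76 and 0.66. Inmt, an amine methyltransferase, rose by 0.53, the membrane protease Tmprss5 by 0.53, the troponin subunit Tnni1 by 0.52 and the potassium channel subunit Kcne4 by 0.42 (adjusted p = 0.0025, 0.0022, 0.0060 and 0.0090). For Tnni1 and Kcne4 the groups overlapped, and the calls held in 5 and 2 of the 12 fits that left out 1 mouse. Lefty1, an antagonist of Nodal, rose by 0.39 and Gpam, the first enzyme of glycerolipid synthesis, by 0.33.

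Among 51 gene lists with 1089 measured memberships, most held no called gene. Of 47 neuropeptides and receptors of the BNST and extended amygdala 0 were called, with a median of -0.02. Penk ranged from 11.94 to 12.51 at 0 h and from 12.24 to 12.60 at 72 h (change 0.19, limma, adjusted p = 0.58), Pdyn had a change of 0.28 (adjusted p = 0.56) and Crh of 0.11 (adjusted p = 0.86). For Crh the mice at 0 h alone spanned 9.29 to 10.56. Of 25 immediate early genes 0 were called and 17 were negative, as were 6436 of all 18193 genes. The median of the list was -0.11, against 0.03 over all genes. Fos ranged from 9.03 to 9.50 at 0 h and from 8.43 to 8.72 at 72 h without overlap, but its change of -0.64 ± 0.14 (SE) did not reach the threshold (adjusted p = 0.0196). Of 21 circadian clock genes 0 were called. Per2, the clock gene with the smallest p, had a change of 0.28 (adjusted p = 0.081) and Dbp, an output gene of the clock, of 0.23 (adjusted p = 0.28). Of 20 heat shock genes of the cytosol 0 were called, and Hspa1b had a change of -0.32 (adjusted p = 0.40).

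**Figure D3:**
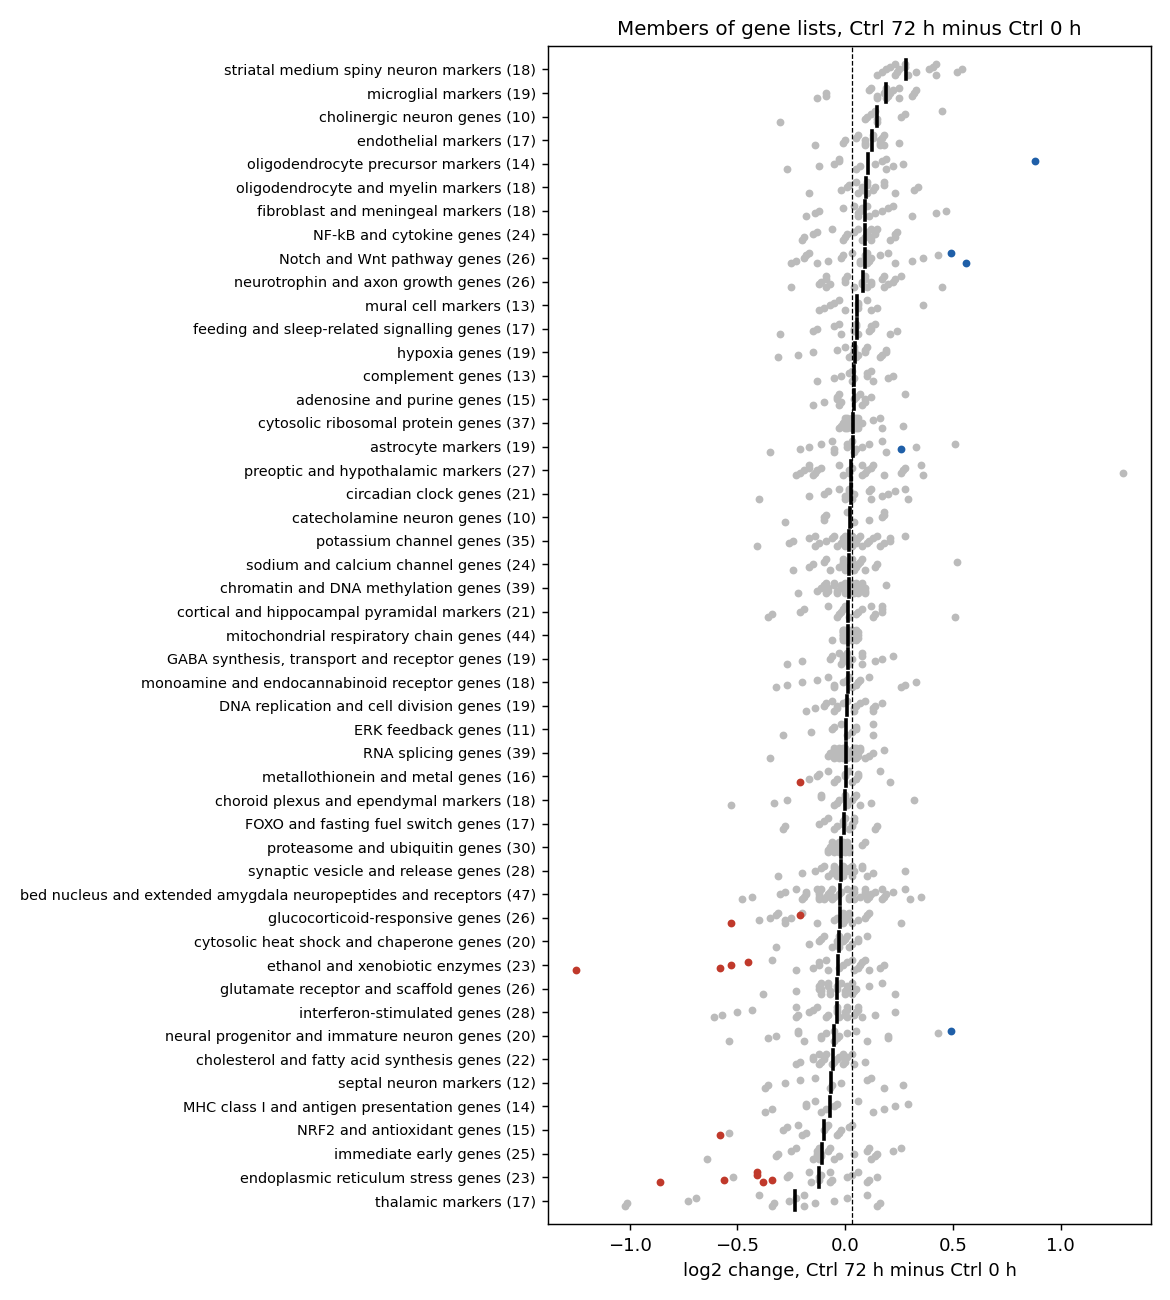
Log2 change from 0 h to 72 h in Ctrl mice for the members of the gene lists with 10 or more measured genes (number in brackets). Each point is a gene, grey where not called, blue where higher and red where lower (limma, adjusted p of 0.01 or less); black bars are list medians and the dashed line is the median of all genes (0.03). The ER stress list (6 of 23 lower) and the xenobiotic list (4 of 23 lower) hold the most called members, and most of the 46 called genes are in none of the lists.

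No marker of the striatum or thalamus was called. Over all 18193 genes, 11757 had positive and 6436 negative values, with a median of 0.03. All 18 striatal medium spiny neuron markers had positive values, with a median of 0.28, and the mean of the list ranged from 9.36 to 10.07 at 0 h and from 9.75 to 10.31 at 72 h, with overlap. Drd1, the dopamine receptor of these neurons, had a change of 0.28 (limma, adjusted p = 0.72). Of 17 thalamic markers 13 were negative, with a median of -0.23, which was -0.07 without mouse 48 and -0.33 without mouse 64 of Ctrl 0 h. The mean ranged from 8.55 to 9.49 at 0 h and from 8.43 to 8.63 at 72 h, with overlap. The choroid plexus transcript Ttr spanned 8.51 to 10.71 at 0 h and 8.85 to 9.97 at 72 h. Of 19 microglial markers 16 were positive, with a median of 0.19, and Fcrls had a change of 0.32 (adjusted p = 0.058). In dissected tissue, more cells of a type and more RNA per cell cannot be told apart, and the part of these markers in the called genes was not tested.

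The levels in the other Ctrl groups are given side by side with those at 0 h and 72 h, the arrays that chose these genes. Aox1 had means of 9.38, 9.18, 8.13 and 7.56 at 0 h, 8 h, 72 h and 7 d, Gstm1 of 12.73, 12.56, 12.15 and 11.89, and Mt1 of 13.68, 13.54, 13.47 and 13.14. The ER genes Hspa5, Sdf2l1 and Manf had no called difference between 72 h and 7 d. Sdf2l1 was nevertheless lower in every mouse at 7 d (7.86 to 7.95) than at 72 h (8.04 to 8.13). Hspa5 had means of 12.47, 12.40, 12.06 and 12.11, Sdf2l1 of 8.94, 8.72, 8.08 and 7.92, and Manf of 10.97, 10.71, 10.41 and 10.43, and the difference between 72 h and 7 d had adjusted p values of 0.60, 0.15 and 0.79 (limma). Among the rises, Gpr17 had means of 9.09, 9.46, 9.97 and 9.73. Ifitm1 had means of 8.33, 8.86, 8.78 and 8.40, so that its mean at 8 h was as high as at 72 h and its mean at 7 d was near that at 0 h.

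The change from 8 h to 7 d in Ctrl mice shares no array with the comparison of 72 h with 0 h. In it, 19 of the 21 fallen genes were called lower, against 9.06% of all genes, and 4 of the 25 risen genes were called higher, against 1.48% of all genes. Gstm1 fell by 0.67, Aox1 by 1.63, Calr by 0.26 and Pdia6 by 0.34 (limma, adjusted p = 5.3e-11, 3.0e-17, 4.0e-06 and 4.3e-06), and 1 risen gene, Ifitm1, was called lower (-0.46).

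**Figure D4:**
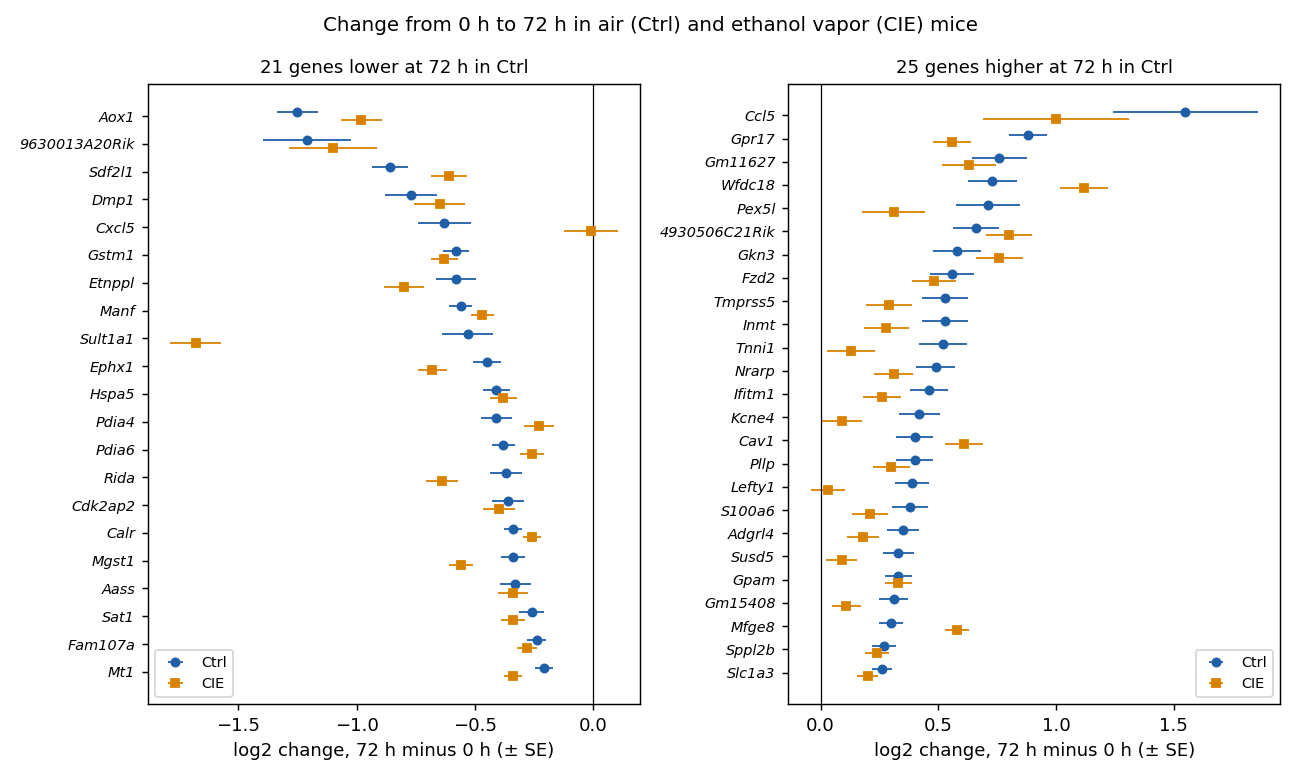
Log2 change from 0 h to 72 h of the 46 called genes in Ctrl mice (blue circles) and in CIE mice (orange squares), with SE from the fit of 46 arrays; lower genes are on the left and higher genes on the right. All 46 changes had the same sign in CIE mice, with Cxcl5 near 0 (-0.01), while over all genes 61.2% were positive and 38.8% negative. Sult1a1 fell by 1.68 in CIE mice against 0.53 in Ctrl mice.

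CIE mice at 72 h and 0 h, which also share no array with the Ctrl mice compared, changed in the same direction for all 21 fallen and all 25 risen genes. Over all genes 38.8% were negative and 61.2% positive in CIE mice. Of the fallen genes, 19 were called lower in CIE mice, against 2.83% of all genes, and of the risen genes 12 were called higher, against 4.25%. In CIE mice Hspa5 fell by 0.38, Manf by 0.47 and Aox1 by 0.98. The difference between the 2 changes was called for 445 probesets (0.988%), 228 higher and 217 lower in CIE, and for 1 of the 46 genes, against 1.25% of all genes. Sult1a1 fell by 1.68 in CIE mice and by 0.53 in Ctrl mice, a difference of -1.16 ± 0.15 (SE; limma, adjusted p = 4.5e-06). For the other 45 the difference did not pass the threshold, which does not show that the changes were equal.

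The genes with the clearest difference between treatments were not called in Ctrl mice. Cdkn1a, an inhibitor of the cell cycle, had a mean of 7.94 ± 0.14 (SD, n = 6) at 0 h and 8.01 ± 0.18 (n = 6) at 72 h in Ctrl mice, and fell by 2.48 in CIE mice. Plin4, a lipid droplet protein induced by glucocorticoids, had a change of -0.28 in Ctrl mice (limma, adjusted p = 0.52) and fell by 3.10 in CIE mice. Htra1, Hmgb2 and Fcrls had changes of 0.06, 0.13 and 0.32 in Ctrl mice and of -0.83, -0.84 and 1.46 in CIE mice. Of 26 glucocorticoid-responsive genes, 2 fell in Ctrl mice (Sult1a1 and Mt1), against 0.115% of all genes, with a median of -0.03. The call of Sult1a1 held in 3 of the 12 fits that left out 1 mouse. In CIE mice 20 of the 26 fell, against 2.83% of all genes, with a median of -0.74. Fkbp5, which restrains the glucocorticoid receptor, was at 9.36 in Ctrl mice at both times (change 0.00, adjusted p = 0.99) and fell by 0.69 in CIE mice.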

How the data were processed

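Total RNA of BNST from 1 mouse per array was hybridized to Affymetrix mouse genome arrays. The authors deposited log2 probeset intensities from RMA and quantile normalization within each hybridization batch, a second quantile normalization over all arrays, and ComBat for hybridization batch. Tool versions and the batch of each array were not given, so no within-batch value can be given, and the degrees of freedom do not count the batches removed. These steps would conceal a shift shared by most genes. Values ran from 2.68 to 14.4, with 0 missing and 0 identical arrays. Signal over background is unknown, and the number of arrays limits the precision.

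In the platform annotation 34945 probesets had 1 symbol, 932 several and 9160 none. Each gene was represented by its brightest probeset, by mean log2 intensity, among those with 1 symbol (18193 genes). Of the 46 called genes, 20 had further probesets. For 6 of them another was called in the same direction, for 0 in the opposite direction, and for 14 no further probeset was called. For 4 (Hspa5, Pdia4, Mgst1, Slc1a3) another was of opposite sign without a call. The probesets of Gstm1, Gkn3, Mt1, Rida, Wfdc18 and Dmp1 are of types that can bind related transcripts. Promoters were matched by symbol to RefSeq sequences.

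With limma 3.58.1 in R 4.3.3, means of 8 groups were fitted over 46 arrays (38 residual and 3.94 prior degrees of freedom). P values were two-sided and adjusted by Benjamini-Hochberg over 45037 probesets, and those of 0.01 or less were called. On simulated data for this comparison with 45037 probesets, 32%, 82%, 96% and 98% of 50 probesets each were recovered at log2 changes of 0.3, 0.5, 1 and 1.5, with 0 false calls. The simulated noise was independent between probesets and equal in all groups. In the data the Ctrl 0 h mice were more dispersed than the Ctrl 72 h mice, so recovery and false calls there can differ. Mice are numbered as in the labels.

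Gene lists were written from general knowledge and are described by counts and medians, with no test. The comparison, the lists and the rule for named genes were chosen with earlier results of these data known. The rule took the 15 largest rises and falls, up to 4 called genes per list, the gene with the smallest p of lists with no call, a fixed set of genes, and the 5 genes with the smallest p for the difference between CIE and Ctrl. Genes outside the rule were named after their values were seen: Calr, Mgst1, Aass, Sat1, Fam107a, Mfge8, Pllp, Adgrl4, Lefty1, Gpam, Susd5, S100a6, Gm15408, Sppl2b, Slc7a11, Srxn1, Pdia3, Dnajc3, Atf4, Chac1 and the tissue markers. Alternatives covered the arrays fitted, array weights, normalization, a filter on low values, the prior, residual components, the threshold, the choice of probeset, and leaving out mice.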

Additional observations from a re-analysis of the deposited data

Results flagged for a closer look

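The 6 mice of Ctrl 0 h and the 6 of Ctrl 72 h were tested for genes and list means, in 148 tests. In 8 a mouse lay far from the other 5 of its group by Dixon's criterion. Chance alone flags about 1 in 20 tests, so 8 is near the number due to chance. The tests share the same mice and are not independent. Mouse 48 of Ctrl 0 h gave 4 of the 8 flags. It was at 10.82 for Pdia6 (others 10.47 to 10.55), 10.91 for Atf4 (others 11.16 to 11.21), 9.49 for Nrarp (others 9.84 to 10.01) and 9.37 for Pex5l (others 10.20 to 10.41). Without it Pex5l was no longer called, while Nrarp and Pdia6 were. At 72 h, mouse 34 was at 8.23 for Plin4 (others 7.16 to 7.33) and 10.03 for Nrarp (others 10.33 to 10.46), mouse 24 at 9.25 for Cav1 (others 9.43 to 9.52), and mouse 68 at 7.43 for Tmprss5 (others 7.09 to 7.20).

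The change from 0 h to 72 h differed between CIE and Ctrl mice for 8 of the genes named (limma, interaction). The difference, CIE minus Ctrl, was -2.83 for Plin4, -2.54 for Cdkn1a, -1.16 for Sult1a1, -0.97 for Hmgb2, -0.88 for Htra1, -0.70 for Fkbp5, 0.92 for Hes5 and 1.14 for Fcrls (adjusted p = 2.3e-10, 3.7e-12, 4.5e-06, 1.7e-07, 5.7e-10, 1.2e-04, 2.4e-04 and 6.9e-09). Hes5 changed by 0.43 in Ctrl mice and rose by 1.35 in CIE mice.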

How the results depend on the processing

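All 46 called genes kept their direction in each alternative run that could give a value for them. Over the alternatives with a test, 776 of these values stayed on the same side of the threshold and 232 lost the call. The 78 calls became 12 on the 12 arrays alone, 39 on the 24 Ctrl arrays alone and 51 with array weights, and rose to 426 and 643 with 1 and 2 residual components as covariates and to 178 at an adjusted p of 0.05 or less. Without 1 mouse the count ranged from 49 (mouse 56 of Ctrl 0 h) to 104 (mouse 12 of Ctrl 0 h), that of higher probesets from 15 to 62 and that of lower ones from 32 to 46. The count of higher probesets, 35, moved by over 1.5 times without mouse 12 (62), 48 (16) or 56 (17) of Ctrl 0 h and without mouse 16 (21), 44 (18), 52 (21) or 68 (15) of Ctrl 72 h. Without mice 48 and 56 together, added after the data were seen, 38 were called. Aligning array medians gave 44 higher and 38 lower.

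The 445 probesets with a difference between CIE and Ctrl became 722 and 1055 with 1 and 2 residual components and 289 without mice 48 and 56, and ranged from 329 to 573 without 1 mouse. This difference needs the CIE groups at 0 h and 72 h, which the fits of the 12 and of the 24 Ctrl arrays do not hold. The causes of these shifts were not tested.

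Among called genes, leaving out 1 mouse ended the call of Cxcl5 (mouse 56, adjusted p = 0.013), Rida (16 or 24, up to 0.011), Tmprss5 (48 or 68, up to 0.013), Inmt (56 or 44, up to 0.017), Sppl2b (56, 44 or 68, up to 0.016) and Pex5l (48, 16, 52 or 68, up to 0.018). Cdk2ap2 and Lefty1 were called in 7 of 12 such fits, Aass, Tnni1 and Gm15408 in 5, Sat1, Pllp and Adgrl4 in 4, Sult1a1, Susd5 and Cav1 in 3 and Ccl5, Kcne4 and S100a6 in 2. The reversed values were all of genes near 0 that were not called. Fkbp5 was at -0.0085 with array weights and -0.0681 as the median of its probesets, Atf4 at -0.0202 with array weights and -0.0384 without mice 48 and 56, and Cdkn1a at -0.0482 as the median of its probesets. Without 1 mouse Fkbp5 ranged from -0.0529 to 0.046 and Atf4 from -0.0351 to 0.0256.

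List medians near 0 depended on single mice, and that of the neuropeptides ranged from -0.06 to 0.04, that of the xenobiotic enzymes from -0.07 to -0.02 and that of the thalamic markers from -0.33 to -0.07 without 1 mouse.

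No paired analysis was possible because the replicate numbers are mouse numbers, and no number occurs in both groups. With 6 mice in each group and equal simulated noise in all groups, changes of about 0.3 were recovered in 32% of cases. Changes of this size, and larger ones where mice differ more, can have been missed. All mice of a group share 1 time after the session. The p values set each change against the spread between mice within groups of this cohort. That spread was pooled over all groups of the fit, CIE groups included, and was not that of the compared mice alone.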
